A study of Homo sapiens with 4 samples.

Results

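GAS1, a gene picked for its higher level in the Fer knockdown libraries of this study, was followed together with 8 genes of the hedgehog pathway: the co-receptors CDON and BOC, the receptor PTCH1, the transducer SMO, the transcription factors GLI1, GLI2 and GLI3, and their inhibitor SUFU. They were taken by symbol, and each of the 9 symbols named 1 of the 39634 genes that held values in the deposited table of raw counts. All 9 passed the filter on low counts that left 15336 genes for the test. The study sequenced polyadenylated RNA of BEAS-2B, an immortalised line of human bronchial epithelial cells, grown in N2B27 medium. The question was which genes change when the tyrosine kinase FER is depleted. The 2 control libraries (replicates 1 and 2) carry a control short hairpin RNA, shControl, and the 2 libraries labelled Fer knockdown carry a hairpin against Fer, shFer, and are called the shFer-labelled libraries below. Whether replicates were grown separately is not stated, so a p-value here reflects the spread between these samples alone, which may be technical. The sources used here give neither the hairpin sequences nor the time after delivery.

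Hedgehog ligands are secreted proteins that bind PTCH1, and binding releases SMO from inhibition by PTCH1. GAS1 is a protein held on the cell surface by a lipid anchor and was named for its expression in growth-arrested fibroblasts; with CDON and BOC it acts as a co-receptor that presents the ligand to PTCH1. Active SMO, working at the primary cilium, frees the GLI factors from SUFU and changes GLI2 and GLI3 from repressor to activator forms. PTCH1, GLI1 and HHIP are induced by the pathway in many tissues, and in embryos GAS1, CDON and BOC are repressed by it. In the lung, the pathway is known from signalling between the epithelium and the mesenchyme during branching.

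Upstream sequences are shown for GAS1, the gene picked for its difference, and for PTCH1, whose induction is the usual readout of the pathway. The sequences are from RefSeq on build GRCh38.p14 and cover the 250 bases before a transcript start, on the minus strand, at chr9:86947507-86947756 for GAS1 and chr9:95509267-95509516 for 1 of the 5 PTCH1 starts.
GAS1: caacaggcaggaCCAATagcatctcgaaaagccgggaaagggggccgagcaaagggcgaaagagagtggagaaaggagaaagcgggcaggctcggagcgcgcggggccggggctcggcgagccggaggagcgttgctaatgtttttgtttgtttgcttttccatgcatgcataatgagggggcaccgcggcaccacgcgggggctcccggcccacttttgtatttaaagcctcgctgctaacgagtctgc
PTCH1: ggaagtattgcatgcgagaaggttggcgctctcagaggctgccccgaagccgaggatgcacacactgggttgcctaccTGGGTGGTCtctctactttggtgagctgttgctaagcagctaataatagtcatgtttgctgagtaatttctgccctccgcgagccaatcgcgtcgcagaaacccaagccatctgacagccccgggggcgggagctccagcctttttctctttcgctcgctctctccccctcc
The capitals mark a CCAAT box in GAS1, which begins 238 bases before the start, and the GLI binding consensus TGGGTGGTC in PTCH1, which begins 172 bases before it. Both motifs were searched on both strands, and they share no bases in these windows. The GLI consensus was found in 70 of 35116 upstream windows of all genes (0.199%) and CCAAT in 11240 (32.0%). RefSeq windows were found for 7 of the 9 genes, all but GLI1 and GLI3, and 1 of their 15 windows held the GLI consensus. CCAAT was in 5 of the 15, those of GAS1, CDON, GLI2, SUFU and PTCH1, a share near that of all windows; the CCAAT of the PTCH1 window printed is in lower case. The GAS1 window did not hold the GLI consensus on either strand, and no binding was measured here.

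The libraries held 21422976 to 25169713 counts, and levels are given as CPM, counts scaled to a common library size, with TMM factors, unless a level per length is named. The FER mRNA goes against the knockdown label: it stood at 16.3 and 21.2 CPM in control replicates 1 and 2 and at 17.8 and 20.1 CPM in the shFer-labelled libraries, a log2 fold difference of 0.02 ± 0.17 (SE). Every direction below is therefore that of the shFer-labelled libraries. Counts on the mitochondrial chromosome made up 16.9% and 19.4% of the control libraries and 9.62% and 9.37% of the shFer-labelled libraries. All 9 epithelial markers had counts in every library, but KRT5 had only 3 to 12 and was too low to be tested. The summed levels of the 9 were 2745 to 3460 CPM in control and 2911 to 2941 CPM in the shFer-labelled libraries. Nearly all of this was KRT7, KRT8 and KRT18. EPCAM, a defining marker, had only 56 to 132 counts. The sum hides differences in both directions. Of the 8 epithelial markers tested, 0 passed in edgeR's test, with 5 estimates above 0 and 3 below. They ran from -0.40 for KRT7 (adjusted p = 0.169) to 0.46 for EPCAM (0.426). Both shFer-labelled libraries lay above both controls in 2 and below them in 1, beside 25.8% and 23.4% of all tested genes. The 9 fibroblast markers summed to 574 to 608 CPM in control and 354 to 390 CPM in the other libraries. Of these, DCN and LUM were at 0, COL1A2 and FAP had at most 4 counts, and THY1 made up most of the sum. THY1 fell, with a log2 fold difference of -0.77 (adjusted p = 0.0302), a call lost without Fer knockdown replicate 1 or 2 (-0.86 and -0.69, adjusted p = 0.142 and 0.516). Other fibroblast markers did not share a direction: COL1A1 was at -0.46 (adjusted p = 0.112), PDGFRB at 0.0093 (0.985) and COL3A1 at 1.39 (0.248), the last on 5 to 26 counts, and PDGFRA had 3 and 1 counts in control and 10 and 7 in the shFer-labelled libraries. The leukocyte marker CD3E was at 0 and PTPRC had at most 6 counts, while CD14 had 343 to 506. The 4 endothelial markers in the table summed to 1.89 to 2.98 CPM.

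Per kilobase, GAS1 had the highest level of the 9 genes, and it was higher in both shFer-labelled libraries. GAS1 (ENSG00000180447, chromosome 9) had 2148 and 2931 counts in control replicates 1 and 2, and 4499 and 5747 counts in Fer knockdown replicates 1 and 2. On the scaled values these were 105 and 135 CPM against 198 and 216 CPM, so the groups did not overlap. The means were 120 ± 21.3 CPM in control and 207 ± 12.9 CPM in the shFer-labelled libraries (SD, n = 2 each). The fitted log2 fold difference was 0.79 ± 0.14 (SE), or 1.72-fold. Because GAS1 was picked for this difference, the values are a description and no test is given. Counting error was 1.32 to 2.16% of the GAS1 count in a library, well under the spread between the controls. Leaving out 1 library at a time gave log2 fold differences of 0.61 (without control replicate 1) to 0.96 (without control replicate 2). With the mitochondrial chromosome left out the value was 0.78. In GENCODE 29 the gene is 1 exon with 1 transcript, and none of its bases is shared with another gene. The part of the lower fibroblast marker sum in the GAS1 difference was not tested, and in bulk RNA fewer cells of a type cannot be told apart from less RNA per cell.

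**Figure D1:**
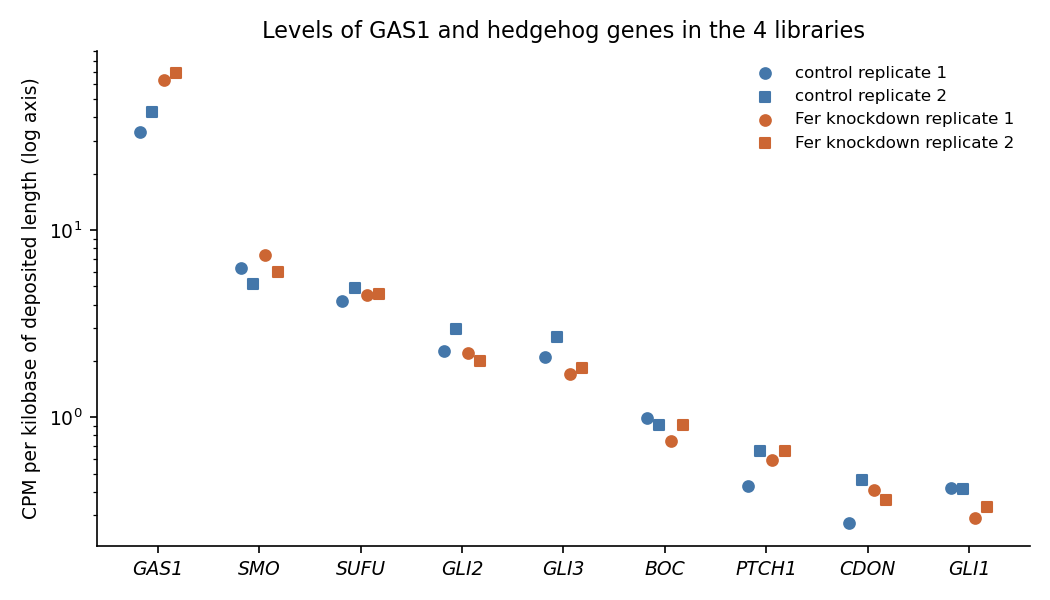
Levels of the 9 genes in each of the 4 libraries, in CPM per kilobase of the deposited gene length on a log axis, with genes ordered by their mean; circles are replicate 1 and squares replicate 2, blue for control and orange for Fer knockdown. GAS1 lies at 33.4 to 68.8, above the range of 5.18 to 7.41 of SMO, and GAS1 is the gene whose orange points both lie above its blue points.

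Apart from GAS1, 0 of the 8 genes had an adjusted p under 0.05 (edgeR quasi-likelihood test, Benjamini-Hochberg over all genes). Of all 15336 tested genes 99 did (0.646%), 43 higher (0.280%) and 56 lower (0.365%). At an unadjusted p under 0.05 there was 1 of the 8, GLI3, beside 17.7% of all tested genes (8.95% higher and 8.77% lower). DESeq2 called 0 of the 8, beside 580 (4.69%) of the 12362 genes to which it gave an adjusted p. It gave none for GLI1, which could not be called there. The median log2 fold difference of the 8 was -0.10, beside 0.01 for all tested genes. In 3 of the 8, GLI1, GLI2 and GLI3, both shFer-labelled libraries lay below both controls, as they did in 23.4% of all tested genes. In 0 of the 8 both lay above, as they did in 25.8% of all tested genes. In either direction the groups were apart in 49.2% of all tested genes. The counts of calls rested on the controls: without control replicate 1, SMO, GLI2 and GLI3 passed, and without control replicate 2, PTCH1 did. Those fits called 4734 of 16068 and 3298 of 16029 genes in all.

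The other co-receptors had lower levels per kilobase than GAS1 and showed no difference past the test. CDON, an immunoglobulin-type co-receptor, had 59 and 106 counts in the controls and 99 and 102 in the shFer-labelled libraries. These were 2.89 and 4.89 CPM against 4.36 and 3.84 CPM, with both shFer-labelled libraries inside the control range. Its log2 fold difference was 0.07 ± 0.29 (SE), with a 95% interval of -0.57 to 0.71 (adjusted p = 0.931), and was -0.26 without control replicate 1. In GENCODE 29, 26.7% of the exonic bases of CDON are shared with VSIG10L2, so its counts are uncertain. BOC, the closest relative of CDON, stood at 10.3 and 9.41 CPM in control and 7.71 and 9.41 CPM in the shFer-labelled libraries. The higher of the latter reached the lower control. The log2 fold difference of BOC was -0.20 ± 0.19 (SE), with an interval of -0.62 to 0.23 (adjusted p = 0.636).

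The receptor and the transducer were also within the error of the test. PTCH1, which binds the ligand and restrains SMO, had 151 and 247 counts in the controls and 232 and 303 in the shFer-labelled libraries, or 7.39 and 11.4 CPM against 10.2 and 11.4 CPM. Control replicate 1 was the low library, and the other 3 lay close together. The log2 fold difference was 0.20 ± 0.22 (SE), with an interval of -0.29 to 0.70 (adjusted p = 0.686). Leaving out control replicate 1 gave -0.079, and leaving out control replicate 2 gave 0.53, where it passed (adjusted p = 0.0354), so its direction rested on 1 library. SMO, the membrane protein that starts the intracellular part of the pathway, stood at 29.6 and 24.6 CPM in control and 35.2 and 28.2 CPM in the shFer-labelled libraries. The groups overlapped, and replicate 1 was the higher library in each. Its log2 fold difference was 0.22 ± 0.17 (SE), with an interval of -0.15 to 0.59 (adjusted p = 0.532). Without control replicate 1 it was 0.36 and passed (adjusted p = 0.0109).

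The 3 GLI genes were lower in both shFer-labelled libraries, but none passed the test. GLI3, the main source of repressor, had 475 and 648 counts in the controls and 432 and 542 in the shFer-labelled libraries. These were 23.2 and 29.9 CPM against 19.0 and 20.4 CPM, with control replicate 2 the highest. The log2 fold difference was -0.43 ± 0.17 (SE), with an interval of -0.80 to -0.059 (adjusted p = 0.220). GLI2, the main activator, stood at 17.5 and 22.9 CPM in control and 16.9 and 15.5 CPM in the shFer-labelled libraries. Only a small gap separated its lower control from the higher of the other 2 libraries. Its log2 fold difference was -0.32 ± 0.18 (SE), with an interval of -0.71 to 0.073 (adjusted p = 0.383). Without control replicate 1, GLI2 and GLI3 stood at -0.51 and -0.60 and passed (adjusted p = 0.00102 and 7.97e-06).

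GLI1, which is itself induced when the pathway is active, was the scarcest of the 9 genes by count. It had 39 and 41 counts in the controls and 30 and 40 in the shFer-labelled libraries, so counting error alone was 15.6 to 18.3% of a count. On the scaled values it stood at 1.91 and 1.89 CPM against 1.32 and 1.51 CPM. The log2 fold difference was -0.42 ± 0.34 (SE), with an interval of -1.18 to 0.34 (adjusted p = 0.570). At this depth a fall to 0.440-fold and a rise to 1.27-fold both lay within the interval. SUFU, which holds the GLI factors in the cytoplasm, stood at 28.9 and 33.7 CPM in control and 31.1 and 31.3 CPM in the shFer-labelled libraries, between the controls. Its log2 fold difference was -0.0029 ± 0.14 (SE), with an interval of -0.33 to 0.32 (adjusted p = 0.994).

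**Figure D2:**
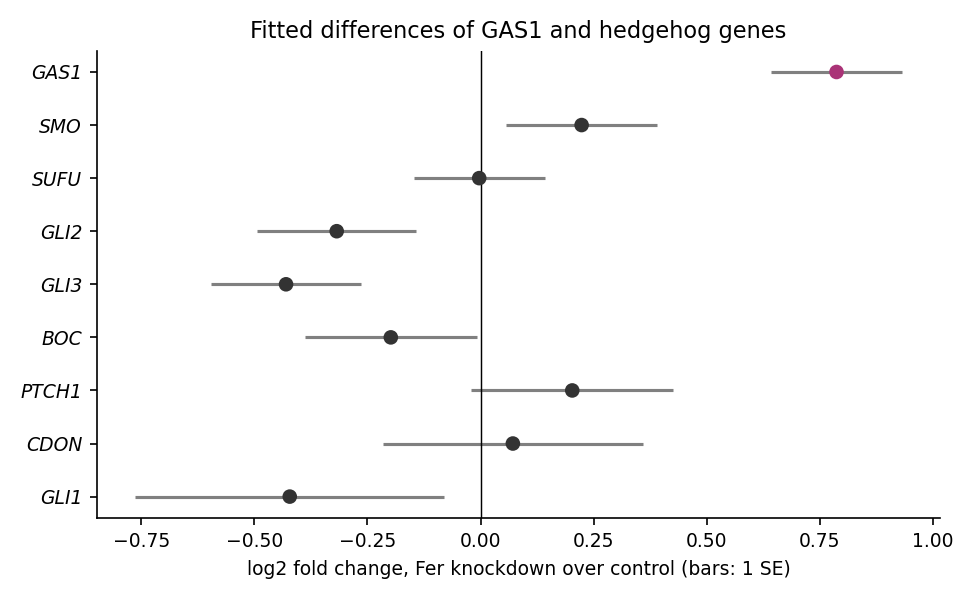
Fitted log2 fold differences of the shFer-labelled libraries over control for the 9 genes; points are the estimates from 2 libraries a group, bars are 1 SE, and GAS1, picked for its difference, is in purple. GAS1 lies at 0.79 and the other 8 between -0.43 and 0.22.

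Per kilobase of the deposited gene length, the mean levels over the 4 libraries ran in the order GAS1, SMO, SUFU, GLI2, GLI3, BOC, PTCH1, CDON and GLI1. GAS1 averaged 52.0 CPM per kilobase, SMO 6.19 and SUFU 4.54, and the ranges of these 3 over the 4 libraries did not overlap. GLI2 at 2.36 and GLI3 at 2.08 had overlapping ranges and cannot be ordered. BOC at 0.890 lay above PTCH1 at 0.587, whose range overlapped that of CDON at 0.377, and CDON overlapped GLI1 at 0.363. The deposited length of PTCH1, 17196 bases, covers the exons of many transcripts, so levels per length depend on which length is used. With the longest coding transcript of GENCODE 29, 5 of the 9 kept their place, and GLI2 changed place with GLI3 and CDON with GLI1.

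Hedgehog ligands were scarce. SHH had 4 and 3 counts in the controls and 10 and 5 in the shFer-labelled libraries, and IHH had 3 and 5 against 7 and 6, so both were too low to be tested. DHH, with 24 and 11 counts against 10 and 12, was at -0.90 ± 0.58 (SE, adjusted p = 0.461), a value that rested on the controls: it was -0.19 without replicate 1 of them and -1.41 without replicate 2. Of 9 genes for ligands, their lipid modification and their release, 7 were tested. In edgeR's test 0 passed, with 1 at an unadjusted p under 0.05. DESeq2 called 0, but it gave no adjusted p for DHH. SCUBE1 (3 to 13 counts) and SCUBE3 (18 to 25) had fewer counts than GLI1, for which DESeq2 also gave none. The median log2 fold difference of the 7 tested genes was -0.24, beside 0.01 for all tested genes. It ran from -0.14 (without Fer knockdown replicate 1) to -0.33 (without control replicate 2), and was -0.072 with library totals alone. The closest was DISP2, a relative of the protein that releases the ligand, with 10.4 and 9.55 CPM in control and 7.88 and 6.89 CPM in the shFer-labelled libraries. Its log2 fold difference was -0.44 ± 0.19 (SE, adjusted p = 0.265). This value ran from -0.53 to -0.34 with 1 library left out at a time.

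Of 7 other genes for proteins that bind hedgehog ligands at the surface, 2 were tested and neither passed in edgeR or DESeq2, with 0 at an unadjusted p under 0.05. HHIP, a pathway-induced protein that traps the ligand, stood at 9.64 and 10.75 CPM in control and 8.85 and 8.06 CPM in the shFer-labelled libraries, a log2 fold difference of -0.27 ± 0.18 (SE, adjusted p = 0.481). The glypican genes GPC3, GPC4 and GPC5 had 0 counts in all 4 libraries, which allows up to 3 counts a library, or 0.113 to 0.147 CPM. These limits cover counting error only.

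The next list held 23 cytoplasmic regulators, among them kinases that phosphorylate GLI proteins and ubiquitin ligase parts that act on them. Of these 23, 0 passed in edgeR's test and 1 in DESeq2. At an unadjusted p under 0.05 there were 5, 1 higher and 4 lower, a share near the 17.7% of all tested genes. Their median log2 fold difference was -0.0059. TULP3, which carries receptors into the cilium, stood at 93.3 and 109 CPM in control and 72.2 and 72.1 CPM in the shFer-labelled libraries. Its log2 fold difference was -0.49 ± 0.13 (SE, adjusted p = 0.110), and DESeq2 called it (adjusted p = 0.0349). Leaving out 1 library at a time gave -0.60 to -0.39. FBXW11, a substrate-binding part of the ubiquitin ligase that marks GLI proteins for processing, stood at 45.3 and 51.7 CPM against 64.8 and 66.2 CPM, a log2 fold difference of 0.43 ± 0.13 (SE, adjusted p = 0.144). It passed with library totals alone (adjusted p = 0.0481), a scaling that moved the median of all genes from 0.01 to 0.18. With 1 library left out at a time, FBXW11 ran from 0.34 to 0.51. Of 23 genes of transport into and gating of the primary cilium, 0 passed in edgeR or DESeq2, 1 was at an unadjusted p under 0.05, beside 17.7% of all tested genes, and the median was 0.081. Leaving out control replicate 1 turned that median to -0.0059, and scaling by library totals gave 0.245. IFT20 and DYNC2LI1, parts of intraflagellar transport, came closest at 0.36 ± 0.15 and 0.42 ± 0.20 (SE), with adjusted p of 0.246 and 0.310, and 11.2% of the exonic bases of IFT20 are shared with other genes. With 1 library left out at a time, IFT20 ran from 0.33 to 0.37 and DYNC2LI1 from 0.25 to 0.57.

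Among 23 genes known as GLI targets in some tissues, 17 were tested and 1 passed, while DESeq2 called 2. JAG2, which encodes a Notch ligand, had 433 and 365 counts in the controls and 768 and 951 in the shFer-labelled libraries. It rose from 21.2 and 16.8 CPM to 33.8 and 35.8 CPM, with no overlap between the groups. The log2 fold difference was 0.87 ± 0.16 (SE, adjusted p = 0.0474). The call was lost without Fer knockdown replicate 1 or 2 (0.91 and 0.83, adjusted p = 0.133 and 0.334) and with the mitochondrial chromosome left out (0.86, adjusted p = 0.0521), while the difference stayed about as large. In GENCODE 29, 7.33% of the exonic bases of JAG2 are shared with another gene. The other targets mostly had estimates below 0: the list median was -0.33, beside 0.01 for all tested genes. In 11 of the 17 both shFer-labelled libraries lay below both controls, beside 23.4% of all tested genes. At an unadjusted p under 0.05 there were 8 lower and 1 higher, beside 8.77% lower and 8.95% higher of all tested genes. Most of these genes answer to many other pathways. With the mitochondrial chromosome left out, the list median was -0.34 and FOXM1 was at -0.62, and with library totals alone the list median was -0.17, beside 0.18 for all genes.

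The 5 lowest estimates of the list, named after their values were seen, were those of FOXC2, FOXM1, CCND2, SNAI1 and TWIST2, and none passed. FOXM1, a driver of mitotic gene expression, stood at 152 and 165 CPM in control and 106 and 101 CPM in the shFer-labelled libraries, a log2 fold difference of -0.61 ± 0.12 (SE, adjusted p = 0.0552). DESeq2 called it (adjusted p = 0.00185), and leaving out 1 library at a time gave -0.68 to -0.57. Of the exonic bases of FOXM1, 15.9% are shared with other genes. FOXC2, a mesenchymal forkhead factor, was at -0.78 ± 0.20 (SE, adjusted p = 0.0997), and SNAI1 and TWIST2, known from the epithelial-mesenchymal transition, were at -0.57 and -0.52 (adjusted p = 0.194 and 0.186). The cyclin genes CCND2 and CCND1 were at -0.60 and -0.13 (adjusted p = 0.324 and 0.635), and BCL2, an inhibitor of cell death, was at 0.47 (adjusted p = 0.358). FOXF2 and NKX2-2 had 0 counts in all 4 libraries.

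**Figure D3:**
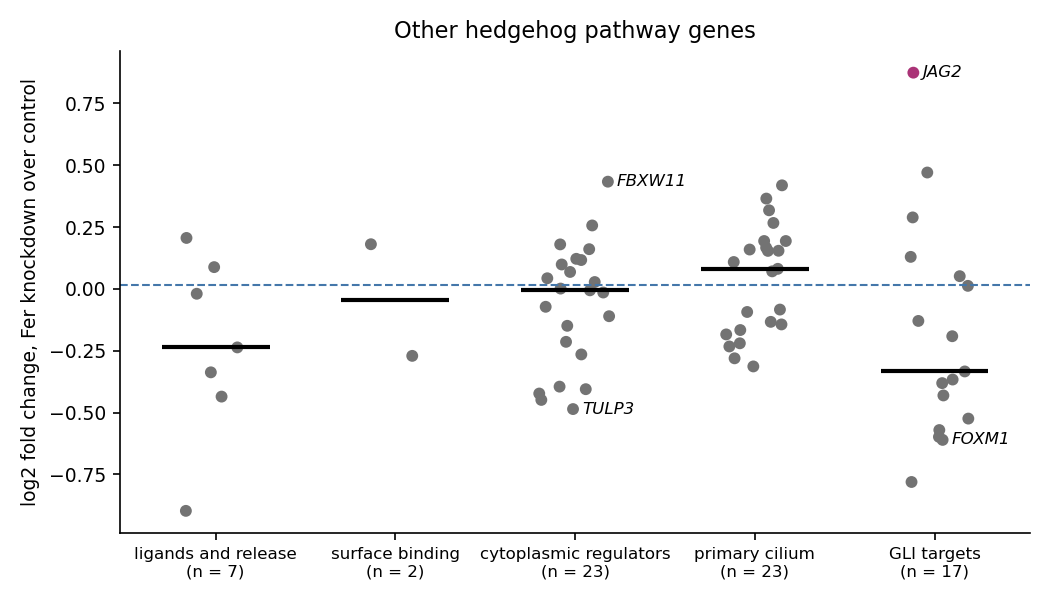
Fitted log2 fold differences of tested genes in the 5 lists of other hedgehog pathway genes, shFer-labelled libraries over control; each point is a gene, JAG2 in purple passed an adjusted p of 0.05, thick bars are list medians and the dashed line is the median of all tested genes. The list medians run from -0.33 for GLI targets to 0.081 for the primary cilium, which was -0.0059 without control replicate 1.

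None of the 3 genes next to GAS1 on chromosome 9 passed the test. GAS1RR, a long non-coding RNA gene beside GAS1, had 119 and 114 counts in the controls and 87 and 156 in the shFer-labelled libraries, a log2 fold difference of -0.18 ± 0.25 (SE, adjusted p = 0.760). Its replicates in the shFer-labelled libraries lay on either side of the controls. Of the nearest coding genes, TUT7, which adds uridines to RNA, was at -0.34 ± 0.19 (SE, adjusted p = 0.400). DAPK1, a kinase tied to cell death, stood at 69.0 and 83.5 CPM in control and 102.5 and 98.4 CPM in the shFer-labelled libraries, a log2 fold difference of 0.40 ± 0.14 (SE, adjusted p = 0.178). These 3 genes were chosen by position after the data were seen, and whether their fold changes differ from that of GAS1 was not tested.

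The patterns nearest to that of GAS1 over the 4 libraries were found by the root mean square distance of log2(CPM + 1), less each gene's own mean, among 13703 tested genes with a mean of at least 1 CPM. The nearest were SOWAHA at 0.049, SLC20A1-DT at 0.056, PFKFB2 at 0.056, SCART1 at 0.062 and ETNK1 at 0.063. Their fitted log2 fold differences were 1.39, 0.98, 0.86, 1.05 and 0.70 in that order, beside 0.79 for GAS1. The 1 added to CPM shrinks the differences of scarce genes. SOWAHA, with means of 0.684 CPM in control and 1.80 CPM in the shFer-labelled libraries, is therefore near to GAS1 in this distance but not in fold difference. SOWAHA rested on 11 to 50 counts and SLC20A1-DT on 27 to 96. PFKFB2, an enzyme that sets the level of a glycolysis activator, stood at 6.31 and 8.02 CPM in control and 13.2 and 12.95 CPM in the shFer-labelled libraries. ETNK1, an ethanolamine kinase, stood at 17.0 and 21.1 CPM against 29.2 and 32.7 CPM. In all 5, as in GAS1, control replicate 1 was the lowest library. With 4 libraries this likeness is only a description, since many genes can share such an order.

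**Figure D4:**
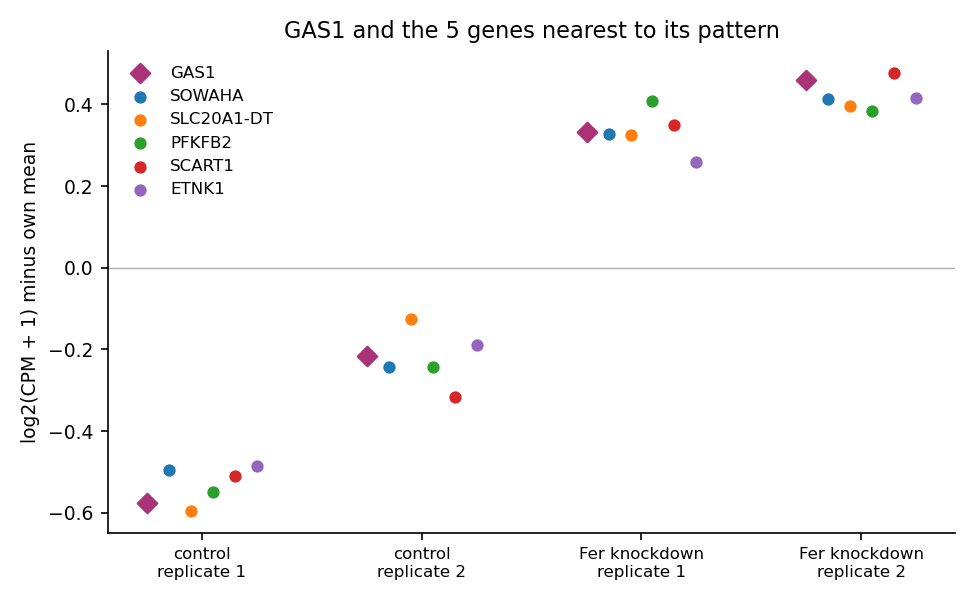
log2(CPM + 1) of GAS1 (diamonds) and of the 5 genes nearest to its pattern, each less its own mean over the 4 libraries, by library. All 6 genes lie below 0 in both controls and above 0 in both shFer-labelled libraries.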

How the data were processed

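Polyadenylated RNA of 4 libraries was made into TruSeq libraries with oligo(dT) selection (labels' protocols). Per the file headers, the authors deposited raw read counts per gene with gene lengths. HISAT2, featureCounts and DESeq2 and the builds hg19 and mm10 are named in the submitters' processing notes, without roles. Neither strand setting nor annotation release is given in the sources used here. Of 39635 rows, 1 held no values and was left out. The column of Fer knockdown replicate 1 carries a shortened name and was matched as the only knockdown library of that number. Chromosomes, exons and shared bases came from GENCODE 29, which matched 39582 identifiers.

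The test on counts was that of edgeR 4.0.16 under R 4.3.3 (filterByExpr, TMM, quasi-likelihood test, two-sided, 2 residual degrees of freedom, Benjamini-Hochberg over all tested genes, threshold 0.05). Standard errors come from the fold change and its F statistic. The genes followed and the lists were chosen with earlier results of these data known. Named genes are the 9, FER, list genes past the threshold or otherwise the 2 smallest p of a list, and the 5 patterns nearest to GAS1. Steps were tested on simulated data. Alternatives were DESeq2 1.42.0, other scalings, no filter, a replicate block and each library left out. The mitochondrial chromosome left out and another gene length were added after seeing the data. The values of 1 gene that the naming rule takes are not reported here.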

Additional observations from a re-analysis of the deposited data

How the results depend on the processing

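GAS1 was picked for its difference and its groups did not overlap, so leaving out a library could hardly turn its direction. Its log2 fold changes of 0.61 to 0.96 over the 10 alternatives are therefore a description only. Counts of calls moved widely. The pathway genes counted here are the 85 of the 5 lists, outside the 9, and 72 of them were tested in the main fit. With library totals alone 443 of 15336 genes passed, 396 of them higher, with 2 pathway genes. With no filter on low counts 993 of 23979 genes passed (526 higher, 467 lower, 4 pathway genes). In DESeq2 580 of the 12362 genes with an adjusted p passed (249 higher, 331 lower, 3 pathway genes). What libraries of the same replicate number share is not stated. Deviations of same-numbered libraries had a correlation over genes of 0.043, which cannot show whether they share a batch. With the replicate number as a block, 990 of 15336 genes passed, 537 higher and 453 lower. Among them were 4 pathway genes and 0 of the 8 genes other than GAS1. FOXM1 and TULP3 passed in edgeR's test with no filter (adjusted p = 0.00151 and 0.035) and with the block (0.00346 and 0.038). With the mitochondrial chromosome left out 35 genes were called lower and 0 pathway genes passed. With each library left out in turn, 56 to 4734 genes passed (31 to 2344 higher, 25 to 2390 lower), with 0 to 3 of the 8 genes and 0 to 19 pathway genes: 19 without either control and 0 without either library labelled Fer knockdown. The lone library of a group is then assumed to vary as much as those of the other group. The controls differed more from each other than the other 2 libraries did, with a median absolute difference of 0.224 against 0.105 in log2(CPM + 1), and the cause was not tested. The order of levels per length kept 7 to 9 places with a library left out and 5 with the GENCODE 29 length.

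SUFU turned to 0.16 with library totals alone, to 0.0013 with no filter and to 0.00051 with the block, on the log2 scale. For 7 genes, leaving out a library gave ranges that crossed 0: SUFU -0.11 to 0.088, CDON -0.26 to 0.48, PTCH1 -0.079 to 0.53, FER -0.16 to 0.19, CD14 -0.58 to 0.083, CDH5 -1.05 to 0.16 and VWF -1.26 to 0.88. Without control replicate 2, CD14 passed at -0.58 (adjusted p = 0.000146). Depth limits GLI1, and SHH and IHH were too low to be tested.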

Other observations

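GAS1 is related in sequence to the receptors of the GDNF family of growth factors, and it can bind their partner RET. Of 10 genes of that family, 4 were tested and 0 passed in edgeR or DESeq2, with 0 at an unadjusted p under 0.05. RET had 3 to 8 counts a library, and GFRA4 and GFRAL had 0 counts in all 4. GFRA1, the GDNF receptor, stood at 7.04 and 7.10 CPM in control and 7.27 and 5.80 CPM in the shFer-labelled libraries. The ligand genes ARTN and GDNF were at -0.28 ± 0.20 and -0.36 ± 0.29 on the log2 scale (SE, adjusted p = 0.503 and 0.563). With 1 library left out at a time, ARTN ran from -0.50 to -0.066.

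Other genes that carry the growth arrest-specific name, with the GAS6 receptor AXL, did not share the difference of GAS1 past the test. Of 8, 7 were tested and 0 passed in edgeR, with 2 at an unadjusted p under 0.05 and 1 called in DESeq2. GAS5, a host gene of small nucleolar RNAs, stood at 89.1 and 75.35 CPM in control and 115 and 134 CPM in the shFer-labelled libraries, a log2 fold difference of 0.60 ± 0.14 (SE, adjusted p = 0.0821). DESeq2 called it (adjusted p = 0.0143), as did edgeR with library totals alone (0.0340), with no filter (0.00272) and with the replicate block (0.00532). Leaving out 1 library at a time gave 0.46 to 0.72. GAS2L1, a linker of actin and microtubules, was at -0.41 ± 0.13 (SE, adjusted p = 0.166). It ran from -0.53 to -0.30 with 1 library left out at a time. GFRA1 in the first list and GAS6 here were named after their values were seen. GAS6, the ligand of AXL, stood at 1096 and 827 CPM in control and 1119 and 1079 CPM in the shFer-labelled libraries, and its groups overlapped.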
